A study of Mus musculus with 2 samples.

Results

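The Hox genes are the 39 protein-coding members of the HoxA, HoxB, HoxC and HoxD complexes, taken as every symbol made of Hox, 1 of the letters a to d and a number. All 39 were among the 28006 features counted in single cells from the femurs of 2 mice. Mouse #1 and Mouse #2 formed 1 group with the genotype Cxcl12(GFP/+); Cxcl12-iCreER; R26R(tdTomato/+), received tamoxifen at postnatal day 21 and were used at postnatal day 28. The GFP allele marks cells that transcribe Cxcl12, the creER comes from 1 BAC transgenic line, and the tdTomato reporter is switched on where creER acted. GFP+ cells were sorted from femurs without the growth plate at the knee and without the hip end. The labels differ on the sort, since 1 protocol field names tdTomato+ cells where the other fields name GFP+ cells. No treated or mutant mice were compared, and the comparisons below are between classes of cells within these mice.

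Hox proteins are transcription factors with a homeodomain that binds DNA. Each complex holds its genes in the order of the paralog groups, which are numbered from the end that is active toward the head to the end that is active toward the tail. The 4 complexes arose by duplication, so genes with the same number in different complexes are paralogs. In the limb bud, HoxA and HoxD genes of the high groups pattern the limb from the hip outward, with group 10 needed for the thigh bone, group 11 for the lower leg and group 13 for the foot. Several HoxC genes are transcribed in the hindlimb and not in the forelimb. Connective tissue and bone cells of the adult keep a Hox pattern that follows the place where they arose, and Hoxa9 and Hoxb4 are known from blood stem and progenitor cells. Hox proteins bind DNA together with the Meis, Pbx and Pknox proteins, which have homeodomains of the TALE type.

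In the GRCm38 build the HoxA complex lies on chromosome 6 from 52155590 to 52260880 with 11 genes, HoxB on chromosome 11 from 96194316 to 96368256 with 10, HoxC on chromosome 15 from 102921103 to 103036852 with 9 and HoxD on chromosome 2 from 74668310 to 74765142 with 9. Exons of Hoxc5 and Hoxc10 overlap on the same strand, as do those of Hoxd3 and Hoxd4, and exons of Hoxa2 and Hoxa3 overlap the model Gm28308, so the UMIs of these genes are less certain. Promoter windows of 300 bases around a RefSeq start were given for 22 of the 39 genes (24 windows, GRCm38.p6). The 4 shown here belong to 2 genes that were higher in endothelial-like cells, Hoxa5 and Hoxb8, and to 2 that were higher in stromal-like cells, Hoxa10 and Hoxc4. Hoxa5 lies on the minus strand at chr6:52204538-52204837, the inner start of Hoxa10 on the minus strand at chr6:52234890-52235189, Hoxb8 on the plus strand at chr11:96281655-96281954 and the given start of Hoxc4 on the plus strand at chr15:103034145-103034444. Each run is 5′ to 3′ along the gene, and capitals mark CCAAT or, for a match on the opposite strand, ATTGG.
Hoxa5: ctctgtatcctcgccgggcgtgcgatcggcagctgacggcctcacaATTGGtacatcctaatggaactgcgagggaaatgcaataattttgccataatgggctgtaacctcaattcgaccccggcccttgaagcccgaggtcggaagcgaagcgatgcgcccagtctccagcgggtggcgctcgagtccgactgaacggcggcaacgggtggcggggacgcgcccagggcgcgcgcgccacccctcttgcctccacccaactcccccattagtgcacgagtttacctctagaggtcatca
Hoxa10: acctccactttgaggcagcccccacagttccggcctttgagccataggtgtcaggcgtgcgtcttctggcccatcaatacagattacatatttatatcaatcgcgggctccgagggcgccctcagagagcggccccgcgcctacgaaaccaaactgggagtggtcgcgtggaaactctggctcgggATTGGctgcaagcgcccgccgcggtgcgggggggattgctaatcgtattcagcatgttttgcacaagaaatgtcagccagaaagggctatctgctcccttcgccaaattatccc
Hoxb8: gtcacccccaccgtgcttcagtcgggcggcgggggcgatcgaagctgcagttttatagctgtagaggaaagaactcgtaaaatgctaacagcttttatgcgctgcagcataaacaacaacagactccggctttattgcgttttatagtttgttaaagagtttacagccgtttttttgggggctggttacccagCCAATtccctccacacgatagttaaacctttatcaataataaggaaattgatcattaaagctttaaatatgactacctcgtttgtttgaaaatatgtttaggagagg
Hoxc4: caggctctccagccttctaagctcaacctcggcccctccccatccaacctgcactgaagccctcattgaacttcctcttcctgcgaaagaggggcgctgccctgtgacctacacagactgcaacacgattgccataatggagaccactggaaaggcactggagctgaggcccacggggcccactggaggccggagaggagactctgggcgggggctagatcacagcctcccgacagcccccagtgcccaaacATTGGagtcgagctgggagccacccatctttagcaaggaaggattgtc
Each of these windows held 1 CCAAT, and 15 of the 24 Hox windows held at least 1 on either strand, against 37.4% of the 32851 windows of all genes. The motif TGATTNAT, a joint Hox and Pbx site, was in the windows of Hoxa2 and Hoxd11 and in 3.22% of all windows, and TAATTA was in 2 Hox windows, both of Hoxd11, and in 5.29% of all. CpG pairs were 29 in the Hoxa5 window, 21 in that of Hoxa10, 13 in that of Hoxb8 and 9 in that of Hoxc4, beside a median of 14.5 over the Hox windows and 7 over all windows. The CpG counts did not sort the genes by the class in which they were high.

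The libraries held 54940400 UMIs in Mouse #1 and 88790688 in Mouse #2, a UMI being a tag that lets each captured transcript be counted once. Cells were the barcodes in which 1000 genes or more were detected and mitochondrial UMIs did not exceed 15%, which gave 2750 and 4582 with medians of 12966.5 and 12190 UMIs, and the libraries shared 7 cell barcodes. Cells were clustered without the Hox genes and without the related genes named below, so the class names do not rest on them. The stromal-like cells (1762 and 3525) were the sum of reticular-like (1252 and 2431), preosteoblast-like (417 and 798), fibroblast-like (79 and 235) and mature osteoblast-like (14 and 61) cells, beside 152 and 138 endothelial-like and 716 and 709 hematopoietic cells. Pecam1 was at 882 and 889 CPM (UMIs of a gene per 1000000 UMIs of the class) in endothelial-like cells against 5.49 and 4.80 in stromal-like cells. It was among the markers that named the endothelial-like clusters, so a high level there follows from the naming. Ptprc, which was not on the marker lists, was at 240 and 212 CPM in hematopoietic cells against 1.14 and 0.470 in stromal-like cells. GFP+ was the gate, and Cxcl12 itself was at 6870 and 6110 CPM in stromal-like, 987 and 1248 in endothelial-like and 363 and 516 in hematopoietic cells. The summed reticular marker list (8 of 8 genes detected) was at 12963 and 10268 CPM in stromal-like cells, at 791 and 1226 in endothelial-like and at 1415 and 1469 in hematopoietic cells. Markers of granulocytes (10 genes) summed to 7631 and 4967 CPM in endothelial-like cells and mural markers (7 genes, 1 of them at 0) to 355 and 206, and their part in the endothelial-like values was not tested. RNA outside cells was read from barcodes of 1 to 100 UMIs, which held 5150177 and 4522306 UMIs.

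Hox transcripts made up a similar part of the RNA of stromal-like and endothelial-like cells and a small part of that of hematopoietic cells. Summed over the 39 genes, the level was 437 ± 15.2 CPM (SD, n = 2 mice) in stromal-like cells, 412 ± 39.8 in endothelial-like cells and 42.7 ± 5.07 in hematopoietic cells, with 334 ± 28.2 in the barcodes of 1 to 100 UMIs. The ranges of stromal-like and endothelial-like cells overlapped on this sum. At least 1 Hox UMI was found in 96.8% and 95.5% of stromal-like cells, in 92.8% and 92.0% of endothelial-like cells and in 19.4% and 24.5% of hematopoietic cells. The median depths behind these shares were 13228.5 and 12477 UMIs, 10732.5 and 11868.5, and 12697.5 and 10601.

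The members behind that sum differed between the classes. Paralog groups 9 to 13 gave 61.3% ± 1.60 (SD, n = 2) of the Hox UMIs of stromal-like cells, 12.0% ± 1.16 of those of endothelial-like cells and 53.3% ± 1.01 of those of hematopoietic cells, and 59.1% ± 2.50 in the barcodes of 1 to 100 UMIs. As levels, groups 9 to 13 stood at 268 ± 2.30 CPM in stromal-like and 49.8 ± 9.56 in endothelial-like cells, while groups 1 to 8 stood at 169 ± 12.9 and 362 ± 30.3 CPM. Hematopoietic cells had 22.8 ± 3.13 CPM of groups 9 to 13 and 19.9 ± 1.94 of groups 1 to 8. Groups 1 to 8 thus made up most of the Hox RNA of endothelial-like cells, with 61.1% ± 0.868 from groups 5 to 8 and 26.8% ± 0.289 from groups 1 to 4. In hematopoietic cells the share of groups 9 to 13 was 45.9% with the highest doublet scores left out, so there groups 1 to 8 made up most only without those cells.

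By complex, HoxA gave the largest share of the 4 in each of these 3 classes, at 55.5% ± 0.671 in stromal-like, 52.2% ± 2.35 in endothelial-like and 58.3% ± 3.97 in hematopoietic cells. HoxC was the second in stromal-like cells, with 37.6% ± 0.192, and gave 2.98% ± 1.41 in endothelial-like cells. HoxB was the second in endothelial-like cells, with 33.8% ± 5.62, and gave 4.19% ± 0.113 in stromal-like cells. HoxD gave 2.74% ± 0.750, 11.1% ± 1.85 and 1.84% ± 0.454 in the 3 classes.

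**Figure D1:**
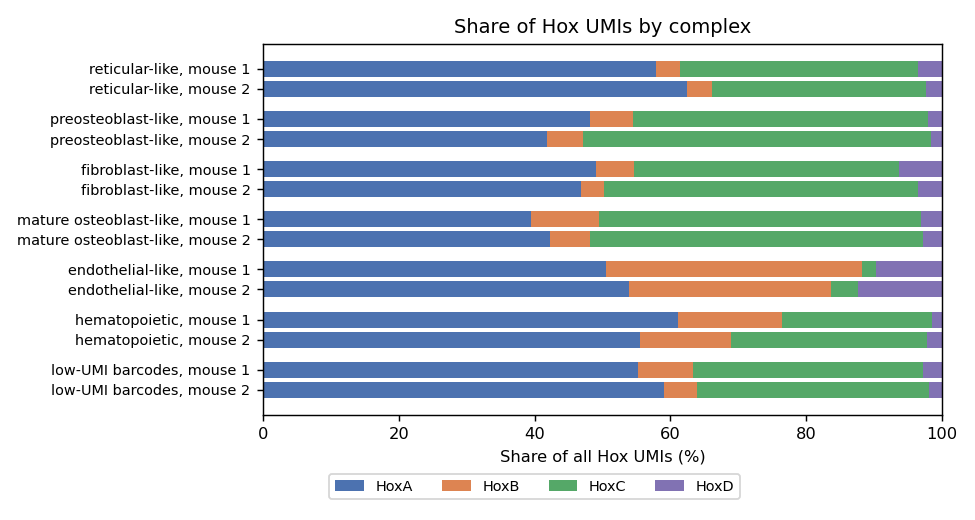
Share of all Hox UMIs (x axis, %) held by the HoxA, HoxB, HoxC and HoxD complexes, 1 bar per cell class and mouse. The HoxB segment averages 33.8% in endothelial-like cells and 4.19% in stromal-like cells, and the HoxC segment 2.98% and 37.6%.

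By the rule of at least 5 CPM in both mice in a reticular-like, preosteoblast-like, fibroblast-like, endothelial-like or hematopoietic class, 23 members are described one by one, and the other 16 are accounted for further on. Stromal-like cells had 14 members at or above this level, endothelial-like cells 14 and hematopoietic cells 2, Hoxa9 and Hoxa10. UMIs were counted at the 3′ ends of transcripts, so CPM values were not divided by length, and the values below compare 1 gene between classes.

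**Figure D2:**
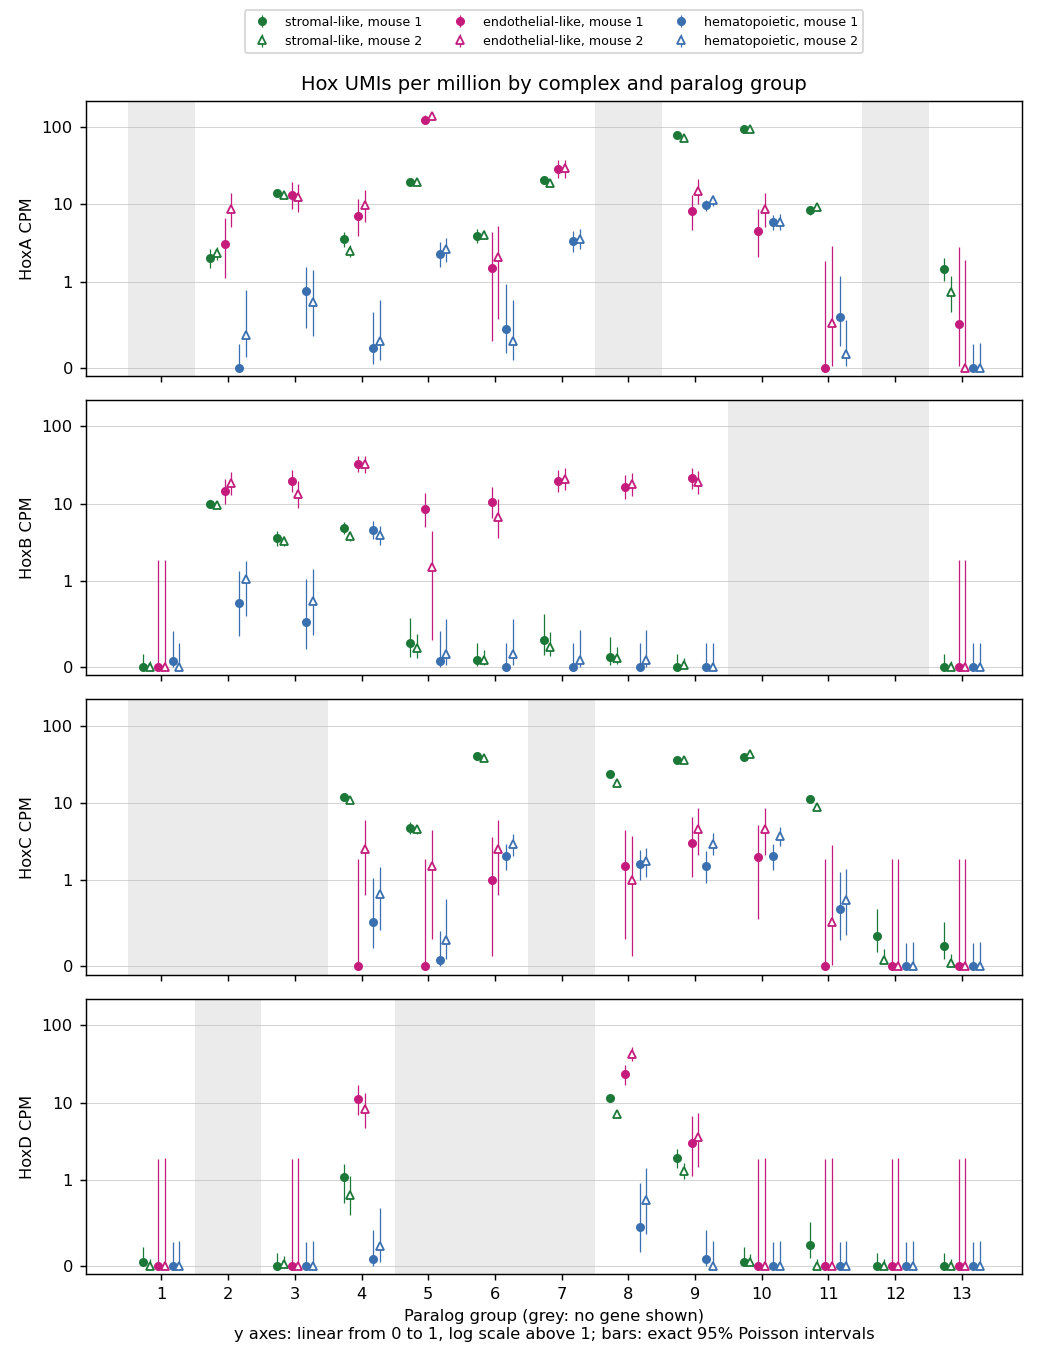
Level of each Hox gene (y axis, CPM, linear from 0 to 1 and on a log scale above) by paralog group (x axis) in stromal-like, endothelial-like and hematopoietic cells, 1 panel per complex and 1 symbol per mouse with 95% Poisson intervals (grey: no gene shown). HoxC genes stand high in stromal-like cells, for Hoxc6 at 40.9 and 38.5 CPM, and HoxB genes in endothelial-like cells, for Hoxb9 at 21.7 and 19.0 CPM.

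For the tests, UMIs were added up within each class and mouse and fitted with the edgeR quasi-likelihood test and Benjamini-Hochberg adjustment over 14163 genes, at an adjusted p under 0.05. With 2 mice, p-values measure the spread between these mice. Of the 39 members, 29 passed the filter on low counts. A member high in 1 class alone passes the filter through that class. The counts of calls, and the p-values of such members, thus describe the list and do not support a direction. Against endothelial-like cells, 11 members were higher in stromal-like cells (23.0% of all genes tested were) and 12 were lower (21.8% of all genes). The higher ones were Hoxa6, Hoxa9 to Hoxa11 and the 7 tested HoxC genes. The lower ones were Hoxa4, Hoxa5, Hoxa7, Hoxb3 to Hoxb9, Hoxd4 and Hoxd8. Over the 29 members the median difference was -0.66 on the log2 scale, beside 0.11 over all genes.

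The 5′ HoxB genes, Hoxb5 to Hoxb9, were higher in endothelial-like than in stromal-like cells, with the largest ratios at Hoxb6 to Hoxb9. Hoxb9, the last of the tested HoxB genes, had 43 UMIs (21.7 CPM) in endothelial-like cells of Mouse #1 and 37 UMIs (19.0 CPM) in Mouse #2, against 0 UMIs among the 25504291 of stromal-like cells in Mouse #1 and 1 UMI among 51043308 in Mouse #2. With a floor of 3 counts per library, Hoxb9 was at least 185-fold higher in endothelial-like cells of Mouse #1, and in Mouse #2, where the stromal-like count was 1, the ratio was 970 (95% counting interval 164 to 39344). Hematopoietic cells of both mice had 0 Hoxb9 UMIs. The Hoxb9 UMIs of the libraries' cells therefore lay almost all in endothelial-like cells, in both mice.

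Hoxb8, known from studies of myeloid progenitors, was at 16.7 and 18.0 CPM in endothelial-like cells from 33 and 35 UMIs, against 3 and 5 UMIs in stromal-like cells. The ratio was 142 in Mouse #1 (counting interval 44.5 to 723) and 184 in Mouse #2 (71.6 to 600.2). Hoxb7 was at 19.7 and 21.1 CPM against 0.314 and 0.235 CPM, and Hoxb6 at 10.6 and 6.68 CPM against 0.0784 CPM in each mouse. For Hoxb7 and Hoxb8 the 2 mice lay close together in endothelial-like cells, and for Hoxb6 they lay further apart. All 3 genes were far above the stromal-like values in both mice. Hoxb5 varied more, with 17 UMIs (8.60 CPM) in endothelial-like cells of Mouse #1 and 3 UMIs (1.54 CPM) in Mouse #2, against 0.274 and 0.216 CPM in stromal-like cells. Adjusted p by the edgeR quasi-likelihood test was 0.000103 for Hoxb9, 6.58e-05 for Hoxb8, 7.55e-05 for Hoxb7, 0.000348 for Hoxb6 and 0.00483 for Hoxb5. These genes passed the filter on low counts through the endothelial-like sums, so their p-values are given as description and do not support the direction. Fitted fold changes of these genes depend on the prior count of the fit, since the stromal-like counts are near 0.

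The 3′ HoxB genes were shared more widely. Hoxb4 was at 32.9 CPM in endothelial-like cells of each mouse, against 4.82 and 3.84 in stromal-like and 4.60 and 3.92 in hematopoietic cells. Its difference of stromal-like minus endothelial-like cells was -2.84 ± 0.20 (log2, SE; adjusted p = 8.47e-05 by the edgeR quasi-likelihood test). Hoxb3 was at 19.7 and 13.4 CPM in endothelial-like against 3.57 and 3.29 in stromal-like cells (-2.18 ± 0.29, adjusted p = 0.00127). Hoxb2 was at 14.7 and 18.5 CPM against 9.96 and 9.76, and this difference did not pass the test (adjusted p = 0.0607, and 0.0162 to 0.0862 over the 8 alternatives). The step between the classes was thus small at Hoxb2 and large at Hoxb6 to Hoxb9.

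Among the HoxA genes, the direction differed by gene, with Hoxa4, Hoxa5 and Hoxa7 lower in stromal-like cells and Hoxa6 higher. Hoxa5 was in endothelial-like cells at 125 and 140 CPM from 247 and 272 UMIs, against 19.7 and 19.2 CPM in stromal-like cells, which is 6.35-fold and 7.29-fold higher. Hoxa4 was at 7.08 and 9.76 CPM in endothelial-like against 3.53 and 2.53 in stromal-like cells, and Hoxa7 at 28.8 and 29.3 against 20.3 and 18.8. The differences of stromal-like minus endothelial-like cells were -2.68 ± 0.13 for Hoxa5 (log2, SE; adjusted p = 2.17e-05 by the edgeR quasi-likelihood test), -1.40 ± 0.35 for Hoxa4 (adjusted p = 0.0179) and -0.48 ± 0.14 for Hoxa7 (adjusted p = 0.0311, and 0.0538 with mouse as a block). Hoxa3 did not differ by the test, at 13.8 and 13.1 CPM in stromal-like against 13.2 and 12.3 in endothelial-like cells (difference 0.18 ± 0.19, adjusted p = 0.517).

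Hoxa9, Hoxa10 and Hoxa11 were higher in stromal-like cells, and Hoxa13, at 1.45 and 0.882 against 0.506 and 0 CPM, did not pass the test. Hoxa10, whose group patterns the thigh, was at 93.0 and 94.0 CPM in stromal-like cells from 2371 and 4798 UMIs, against 4.55 and 8.73 CPM in endothelial-like cells from 9 and 17 UMIs, a ratio of 20.4 and 10.8. Hoxa9 was at 77.9 and 72.3 CPM against 8.09 and 14.9. Hoxa11, of the group that patterns the lower leg, was at 8.43 and 9.36 CPM in stromal-like cells and had 0 UMIs and 1 UMI in endothelial-like cells, so it was at least 5.56-fold higher in Mouse #1, with a ratio of 18.2 in Mouse #2 (counting interval 3.26 to 721). The differences were 3.91 ± 0.23 for Hoxa10 (log2, SE; adjusted p = 4.25e-05 by the edgeR quasi-likelihood test) and 2.80 ± 0.25 for Hoxa9 (adjusted p = 0.000234), and Hoxa11 passed at an adjusted p of 0.00281. Hoxa6, under 5 CPM in both classes (3.88 and 4.06 against 1.52 and 2.05 CPM) passed at 0.0467 and did not with mouse as a block (0.0807).

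All 7 tested HoxC genes were higher in stromal-like cells, whatever their group. Hoxc6 was at 40.9 and 38.5 CPM in stromal-like cells against 2 and 5 UMIs (1.01 and 2.57 CPM) in endothelial-like cells, a difference of 4.56 ± 0.34 (log2, SE; adjusted p = 0.000119 by the edgeR quasi-likelihood test). Hoxc10 was at 38.9 and 42.9 CPM against 2.02 and 4.62 (3.72 ± 0.41, adjusted p = 0.000531), and Hoxc9 at 35.6 and 36.4 against 3.03 and 4.62 (3.33 ± 0.36, adjusted p = 0.000518). Hoxc8 was at 23.5 and 18.3 CPM against 1.52 and 1.03. Hoxc4, Hoxc5 and Hoxc11 had 0 UMIs in the 1977030 of endothelial-like cells of Mouse #1 and 5, 3 and 1 UMIs in Mouse #2, while stromal-like cells had 12.0 and 11.1, 4.82 and 4.58, and 11.4 and 8.93 CPM. In Mouse #1 they were at least 7.88-fold, 3.18-fold and 7.52-fold higher in stromal-like cells. The low-numbered HoxC genes Hoxc4 to Hoxc6 thus had the direction of their complex. Of their paralogs in the other complexes, Hoxa4, Hoxa5, Hoxb4 to Hoxb6 and Hoxd4 were lower in stromal-like cells. Hoxa6 was higher there, though not with mouse as a block.

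HoxD gave 2 named members. Hoxd8 was at 23.3 and 42.6 CPM in endothelial-like cells and at 11.3 and 7.21 in stromal-like cells, so the mice differed in size but not in direction (stromal-like minus endothelial-like -1.76 ± 0.36, log2, SE; adjusted p = 0.00815 by the edgeR quasi-likelihood test). Hoxd4 was at 11.1 and 8.22 CPM against 1.10 and 0.823 (-3.25 ± 0.41, adjusted p = 0.000949). The fitted differences carry a scaling factor that lies 0.10 and 0.08 (log2) above that of plain CPM for this pair of classes.

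**Figure D3:**
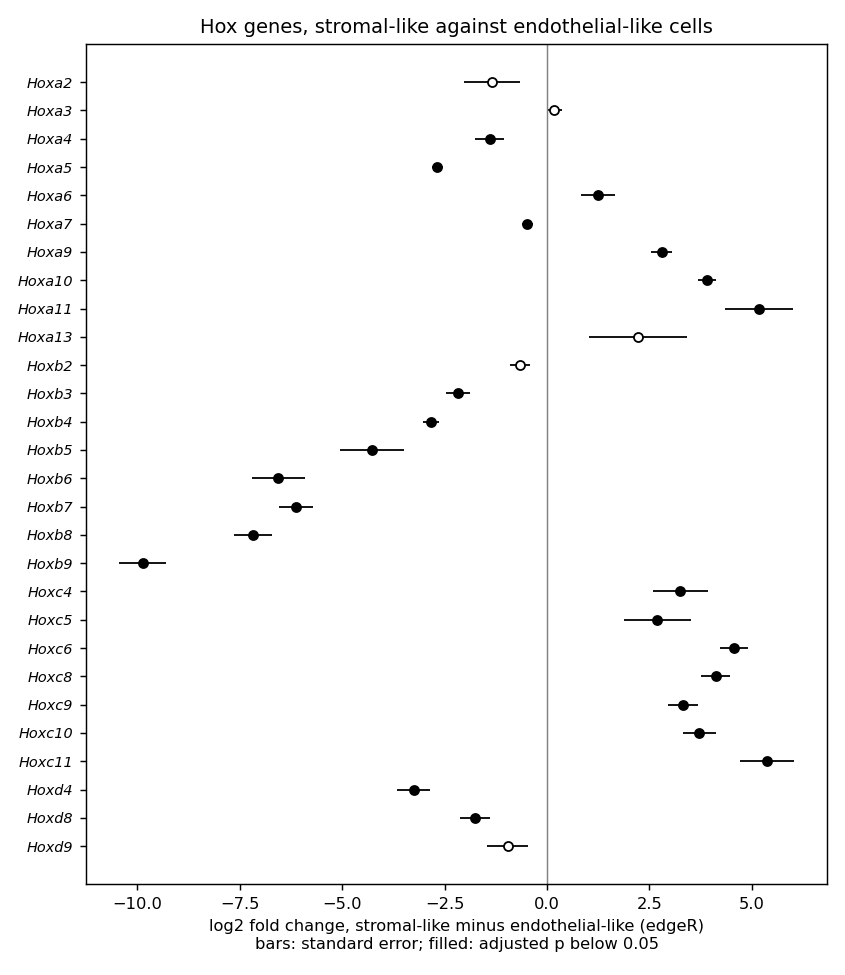
Difference of stromal-like minus endothelial-like cells (x axis, log2 fold change from edgeR, bars are standard errors) for tested members, ordered by complex and group. Hoxb3 to Hoxb9 lie left of 0 and Hoxc4 to Hoxc11 right of it. The HoxA genes lie on both sides, with Hoxa5 (-2.68) and Hoxa7 on the left and Hoxa6 and Hoxa10 (3.91) on the right.

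The split between classes was also present in the shares of cells with a UMI. At least 1 UMI of Hoxb5 to Hoxb9 was found in 72 of 152 endothelial-like cells of Mouse #1 (47.4%, 95% Clopper-Pearson interval 39.2 to 55.6%) and 65 of 138 of Mouse #2 (47.1%), against 0.624% and 0.823% of stromal-like cells and 0.140% and 0.423% of hematopoietic cells. A UMI of Hoxc4 to Hoxc11 was found in 79.4% and 79.1% of stromal-like cells, against 5.26% and 9.42% of endothelial-like cells and 5.45% and 8.74% of hematopoietic cells. Of the 8 and 13 endothelial-like cells with a UMI of Hoxc4 to Hoxc11, 5 and 8 also had one of Hoxb5 to Hoxb9. Only 11 and 29 stromal-like cells had a UMI of Hoxb5 to Hoxb9, and 10 and 22 of these also had one of Hoxc4 to Hoxc11. The shares thus describe the classes, and whether the 2 sets avoid each other within a cell was not tested. With each cell thinned to 2000 UMIs, the share with Hoxc4 to Hoxc11 was 29.1% and 27.2% in stromal-like cells, 0.658% and 4.35% in endothelial-like cells and 1.12% and 1.70% in hematopoietic cells. For HoxC the thinned endothelial-like share lay below the hematopoietic one in Mouse #1 and above it in Mouse #2, so a low endothelial-like HoxC level was not told apart from background here. Intervals and floors cover counting error only.

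Endothelial-like cells fell into 2 clusters. One had the arterial markers Sox17 (357 and 346 CPM) and Gja4 (505 and 572 CPM) in 124 and 110 cells, and the other the sinusoidal markers Stab2 (939 and 781 CPM) and Gpm6a (544 and 529 CPM) in 28 and 28 cells. Hoxa5 was at 108 and 107 CPM in the arterial-type and at 182 and 254 in the sinusoidal-type cluster. Hoxb4 was at 36.9 and 39.5 against 19.5 and 9.33 CPM, Hoxd8 at 27.7 and 50.1 against 8.67 and 16.3, and Hoxb9 at 24.4 and 21.7 CPM from 37 and 33 UMIs against 6 and 4 UMIs, the latter 9.33 CPM in Mouse #2. Hoxa5 was higher in the sinusoidal-type cluster in both mice, and Hoxb4 and Hoxd8 in the arterial-type cluster. These differences between clusters were not tested, and the sinusoidal-type values rest on few UMIs.

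Against hematopoietic cells, 23 members were higher in stromal-like cells (38.1% of all genes tested were) and none was lower (35.1% of all genes), and by DESeq2 the counts were again 23 and 0, with 0 lower at an unadjusted p under 0.05. The 6 tested members that did not pass were Hoxb4 to Hoxb9. Hoxa10 was at 5.86 and 5.92 CPM in hematopoietic cells, 15.9-fold below stromal-like cells in each mouse, and Hoxa9 at 9.72 and 11.4 CPM. Fitted differences for this pair lie 0.29 and 0.34 (log2) below plain CPM ratios because of the scaling factors. Hoxb4 was the exception among the genes with more than a few UMIs, with 4.82 and 3.84 CPM in stromal-like and 4.60 and 3.92 in hematopoietic cells (difference -0.30 ± 0.19, log2, SE; adjusted p = 0.196 by the edgeR quasi-likelihood test).

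Endothelial-like cells had 18 members above hematopoietic cells (27.6% of all genes tested were) and 0 below (31.2% of all genes), with 18 and 0 by DESeq2 as well and 0 lower at an unadjusted p under 0.05. These included Hoxa2 to Hoxa7, all 8 tested HoxB genes and Hoxd4, Hoxd8 and Hoxd9. The other 11 were Hoxa9, Hoxa10, Hoxa11, Hoxa13 and the 7 HoxC genes, that is, most of those high in stromal-like cells. Hoxa5 was 54.3-fold and 53.5-fold and Hoxb4 7.15-fold and 8.39-fold higher in endothelial-like than in hematopoietic cells.

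Hox UMIs in hematopoietic cells were set against the barcodes of 1 to 100 UMIs. The 7 HoxC genes from Hoxc4 to Hoxc11 had ratios no higher than 0.145 of the level in those barcodes, where Cxcl12 had ratios of 0.0958 and 0.143. Hoxa10 had ratios of 0.0993 and 0.0831, Hoxa9 of 0.168 and 0.163, Hoxa7 of 0.226 and 0.221 and Hoxb4 of 0.790 and 1.36. Hoxa7, Hoxa9 and Hoxb4 thus stood above the ratio of Cxcl12 in both mice, and Hoxa10 did not in Mouse #2. Leaving out the cells with the highest doublet scores took away 31 of 716 and 47 of 709 hematopoietic cells, and with them 267 of 527 and 246 of 602 Hox UMIs. Hoxa9 then fell to 5.14 and 8.21 CPM and Hoxa10 to 2.06 and 2.82, while Hoxb4 kept 87.1% and 86.3% of its UMIs, at 4.27 and 3.76 CPM. The sum over groups 9 to 13 was 12.1 CPM without these cells. The part that free RNA and doublets had in the hematopoietic Hox level was not tested.

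**Figure D4:**
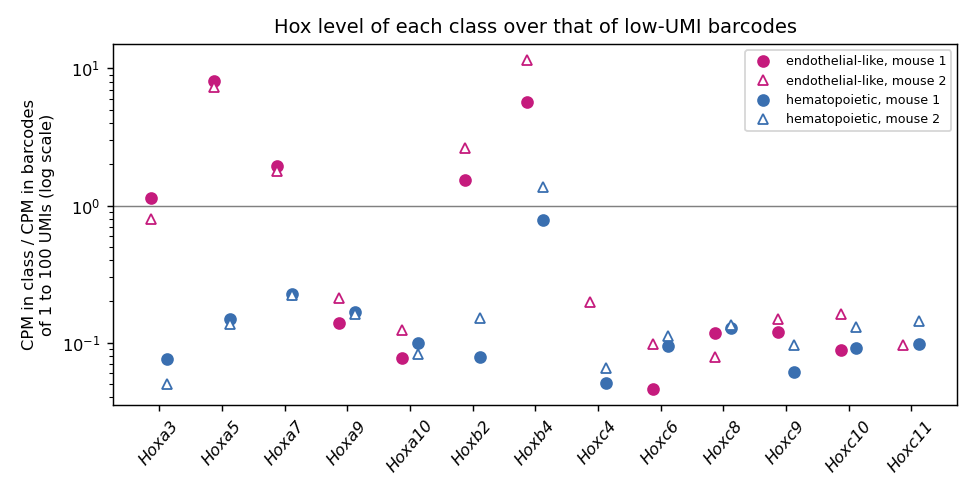
Ratio of the CPM in endothelial-like and hematopoietic cells to the CPM in barcodes of 1 to 100 UMIs (y axis, log scale) for named Hox genes (x axis), 1 symbol per mouse, with a line at 1. Hoxa5 lies at 8.04 and 7.26 in endothelial-like cells, HoxC genes lie below 1 in both classes, and Hoxb4 is near 1 in hematopoietic cells. Ratios of 0 (Hoxc4 and Hoxc11 in endothelial-like cells of Mouse #1) are not drawn.

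Within blood, the B lymphoid cluster with cycling cells (Mki67 at 1059 and 755 CPM, 47 and 48 cells) had Hoxa9 at 19.0 and 23.3 CPM from 20 and 27 UMIs, and Hoxc10 at 0 and 2 UMIs. The other B lymphoid cluster had Hoxa9 at 18.4 and 5.50 CPM and Hoxa10 at 25.2 and 2.20, so there the mice did not match. A dendritic cluster of 6 and 10 cells had 5 and 4 UMIs of Hoxa7. These clusters are given as values, with no test between them.

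The stromal-like classes differed in the level and the makeup of their Hox RNA. Summed Hox levels were 485 ± 5.80 CPM (SD, n = 2) in reticular-like cells, 383 ± 5.64 in preosteoblast-like cells, 365 ± 1.61 in fibroblast-like cells and 169 ± 29.6 in mature osteoblast-like cells. Groups 9 to 13 gave 62.8% ± 2.22, 57.4% ± 0.157, 60.4% ± 1.79 and 61.4% ± 6.79 of these sums. The SD is between mice, and clusters within a class lay far apart. The largest reticular-like cluster was at 425 and 368 CPM and another at 626 and 668. The preosteoblast-like clusters were at 284 and 324 and at 546 and 589 CPM, so the order of these 2 classes did not hold for each cluster. HoxA gave 60.2% ± 3.24, 45.0% ± 4.53, 47.9% ± 1.61 and 40.8% ± 2.00 in the same order, HoxC 33.4% ± 2.54, 47.4% ± 5.48, 42.7% ± 5.03 and 48.3% ± 1.17, and HoxB between 3.55% and 8.01%. HoxA thus gave a larger mean share than HoxC in reticular-like cells, and in preosteoblast-like cells the shares lay close together. The mature osteoblast-like values come from 14 and 61 cells, and that class was not tested.

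As class sums, Hoxa9 and Hoxa10 were higher in reticular-like cells than in preosteoblast-like and fibroblast-like cells, and Hoxa11 and Hoxa13 did not pass either test. Of the 24 members tested among the stromal-like classes over 12871 genes, 6 were higher in the reticular-like class than among preosteoblast-like cells (13.8% of all genes tested were) and 1 was lower (13.2%). Hoxa10 was at 109 and 122 CPM in reticular-like, 65.1 and 52.0 in preosteoblast-like and 75.6 and 80.8 in fibroblast-like cells. Hoxa9 was at 93.0 and 95.6, 52.9 and 44.1, and 47.2 and 35.7 CPM in the same order. The class sums of the mice did not overlap between reticular-like cells and either of the other classes for these genes. Against preosteoblast-like cells this did not hold for each cluster. The largest reticular-like cluster (725 and 1320 cells) had Hoxa9 at 67.9 and 56.5 CPM and Hoxa10 at 90.6 and 85.6. A preosteoblast-like cluster (220 and 275 cells) had them at 77.6 and 72.3 and at 98.4 and 85.9 CPM. The other preosteoblast-like cluster had Hoxa9 at 36.8 and 36.6 CPM. Reticular-like minus preosteoblast-like differences were 1.04 ± 0.13 for Hoxa10 (log2, SE; adjusted p = 0.00123 by the edgeR quasi-likelihood test) and 1.02 ± 0.13 for Hoxa9 (adjusted p = 0.00157).

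Hoxa5 was at 23.4 and 22.9 CPM in reticular-like against 14.2 and 15.3 in preosteoblast-like cells, and Hoxa3 at 16.3 and 15.8 against 9.64 and 10.6. As class sums, both moved the same way (0.70 ± 0.14 and 0.71 ± 0.14, log2, SE, with adjusted p = 0.0100 and 0.00982 by the edgeR quasi-likelihood test). This did not hold for each cluster. The preosteoblast-like cluster with the higher Hoxa9 level was set beside the largest reticular-like cluster. Hoxa3 was higher in that preosteoblast-like cluster in both mice (18.9 against 12.6 CPM in Mouse #2). Hoxa5 was higher there in Mouse #2 alone (21.6 against 20.5 CPM). Hoxa6 (adjusted p = 0.0480) and Hoxd4 (0.0306, with 1 and 5 UMIs in preosteoblast-like cells) were the other higher members. Hoxc5 was the lower one, at 4.19 and 3.66 against 6.95 CPM in each mouse (-0.78 ± 0.22, adjusted p = 0.0368). DESeq2 called 4 members higher and 0 lower, without Hoxa6, Hoxd4 and Hoxc5. Hoxc10 was at 37.0 and 35.1 CPM in reticular-like, 43.2 and 57.7 in preosteoblast-like and 43.7 and 61.3 in fibroblast-like cells, so Mouse #2 showed the larger step. It did not pass the test against either class (adjusted p = 0.114 and 0.0551) and did with mouse as a block (0.0422 and 0.0206), as did Hoxd8 against preosteoblast-like cells (0.0537 and 0.00404).

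Against fibroblast-like cells, Hoxa3, Hoxa5, Hoxa9 and Hoxa10 were higher in reticular-like cells (9.94% of all genes were) and 0 members were lower (12.8%), with 1 lower at an unadjusted p under 0.05 and 3 higher and 0 lower by DESeq2. The Hoxa9 difference was 1.17 ± 0.15 (log2, SE; adjusted p = 0.00161 by the edgeR quasi-likelihood test). Preosteoblast-like cells had 0 members above fibroblast-like cells (9.23% of all genes), with 6 at an unadjusted p under 0.05 and 0 by DESeq2, and 2 below (13%), Hoxa10 and Hoxd8 (adjusted p = 0.0299 and 0.0436). Hoxd8 was at 6.95 and 4.72 CPM in preosteoblast-like and at 16.7 and 10.3 in fibroblast-like cells.

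**Figure D5:**
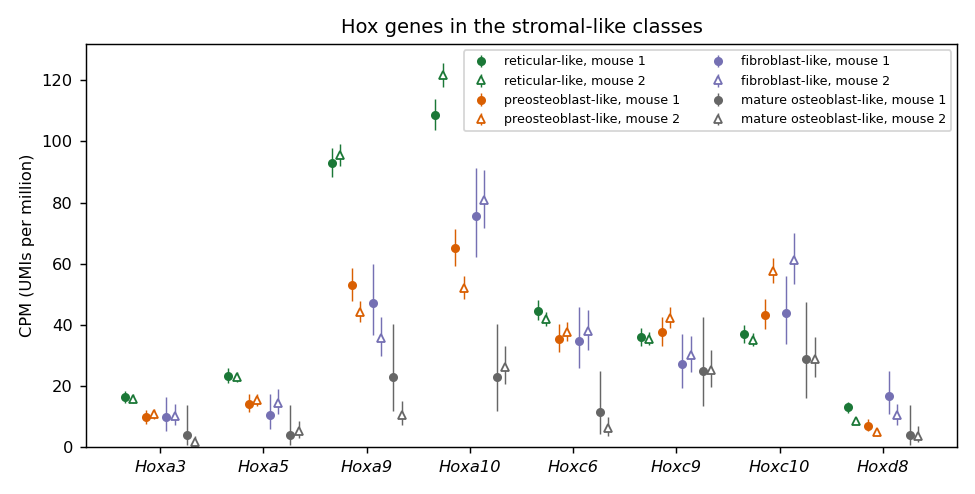
Level of selected Hox genes (y axis, CPM) in the 4 stromal-like classes, 1 symbol per mouse with 95% Poisson intervals. Reticular-like cells lie highest for Hoxa9 and Hoxa10 (109 and 122 CPM) in both mice, and preosteoblast-like and fibroblast-like cells for Hoxc10.

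The remaining 16 members did not reach 5 CPM in both mice in any of the 5 classes of the rule. Some, such as Hoxb5 and Hoxa2, passed that level in endothelial-like cells of a single mouse. Hoxb13, Hoxd12 and Hoxd13 had 0 UMIs in all 7332 cells, and Hoxb1, Hoxc13, Hoxd1, Hoxd3, Hoxd10 and Hoxd11 had 1 to 10 UMIs in all cells. All 6 UMIs of Hoxd11 came from 1 reticular-like cell of Mouse #1, which was also the cell of that mouse with a Hoxd10 UMI. Hoxa13, the HoxA gene of the foot, had 45 and 54 UMIs in 30 and 41 cells, most of them reticular-like (14 and 21) or preosteoblast-like (11 and 13). Hoxc12 had 11 and 5 UMIs in 6 and 5 cells. The HoxD genes of groups 10 to 13 were thus at or near 0 while Hoxa10, Hoxa11, Hoxc10 and Hoxc11 were not.

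Among the others, Hoxa2 was at 2.04 and 2.31 CPM in stromal-like and 3.03 and 8.73 in endothelial-like cells, where the mice were far apart, and Hoxd9 was at 1.92 and 1.31 against 3.03 and 3.60. Neither passed the test between stromal-like and endothelial-like cells (adjusted p = 0.160 and 0.169 by the edgeR quasi-likelihood test). Evx1, which flanks Hoxa13, had 9 UMIs in 8 cells of Mouse #1, 2 of which had Hoxa13, and none in Mouse #2.

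Of 10 listed non-coding RNAs of the complexes, 9 were measured and 4 passed the filter on low counts, of which 3 were lower in stromal-like than in endothelial-like cells (21.8% of all genes were), 0 were higher (23.0%) and 1 did not pass. Hotairm1, which lies at the 3′ end of HoxA, was at 109 and 129 CPM in endothelial-like, 40.7 and 38.9 in stromal-like and 3.49 and 4.15 in hematopoietic cells (stromal-like minus endothelial-like -1.49 ± 0.14, log2, SE; adjusted p = 0.000290 by the edgeR quasi-likelihood test). Hoxd3os1 was at 21.7 and 22.1 CPM in endothelial-like against 3.88 and 2.92 in stromal-like cells (adjusted p = 0.000325), and Hoxaas3 was also lower in stromal-like cells (adjusted p = 0.00337). Hoxb3os was at 12.6 and 6.16 against 7.92 and 8.15 CPM (adjusted p = 0.797). Hotair, of the HoxC complex, was at 0.274 CPM in stromal-like cells of each mouse and had 0 UMIs in endothelial-like cells. Whether the counting used strand is not given in the sources used here, so UMIs of an antisense pair may not be told apart.

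Of the 9 TALE cofactors, 4 were higher in stromal-like than in endothelial-like cells (23.0% of all genes tested were), 0 were lower (21.8%) and 5 did not pass (median 0.48 on the log2 scale, beside 0.11 over all genes). Meis1 was at 15.6 and 15.9 CPM in stromal-like cells and at 0 and 1.03 in endothelial-like cells (adjusted p = 0.00210 by the edgeR quasi-likelihood test). Meis2 was at 46.8 and 36.3 against 10.1 and 3.08 CPM, and Meis3 at 25.1 and 21.2 against 1.52 and 2.57. Endothelial-like cells thus had less RNA of these 3 Meis genes, at a summed Hox level that overlapped that of stromal-like cells.

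Of 4 limb identity factors, 3 were tested, and 2 were higher in stromal-like than in endothelial-like cells, beside 23.0% of all genes. Pitx1, which specifies the hindlimb, was at 29.1 and 30.6 CPM in stromal-like, 1.01 and 2.57 in endothelial-like and 1.04 and 2.15 in hematopoietic cells (stromal-like minus endothelial-like 4.15 ± 0.45, log2, SE; adjusted p = 0.000507 by the edgeR quasi-likelihood test). Tbx4, its hindlimb partner, was at 1.84 and 1.55 CPM in stromal-like cells, and Tbx5, the forelimb factor, at 0.0392 and 0.176. Isl1 was at 1.84 and 1.88 CPM in stromal-like cells with 0 UMIs in endothelial-like cells. In stromal-like cells the hindlimb factor Pitx1 was present and the forelimb factor was at most near 0.

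Of 15 other limb homeobox genes, 13 were tested, 9 were higher in stromal-like than in endothelial-like cells (23.0% of all genes were), 1 was lower (21.8%) and 3 did not pass. Prrx1, a factor of limb mesenchyme, was at 339 and 392 against 18.2 and 36.0 CPM (3.85 ± 0.34, log2, SE; adjusted p = 0.000217 by the edgeR quasi-likelihood test). Msx1 was the lower one, at 36.8 and 43.9 against 84.5 and 80.7 CPM (adjusted p = 0.0228). Within stromal-like cells, Shox2 was at 405 and 365 CPM in preosteoblast-like and 174 and 202 in reticular-like cells (adjusted p = 0.00391), and Prrx2 and Meox2 were highest in fibroblast-like cells, at 93.0 and 123 and at 68.0 and 26.2 CPM. As class sums, Hoxa9 and Hoxa10 were highest in reticular-like cells, and Shox2, Prrx2 and Meox2 were not.

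Of 15 Polycomb-type chromatin regulators, 3 were higher and 3 lower in stromal-like than in endothelial-like cells, near the 23.0% and 21.8% of all genes. Against hematopoietic cells 8 were higher and 4 lower, beside 38.1% and 35.1% of all genes. Ezh2, the methyltransferase of the Polycomb complex, was at 155 and 147 CPM in hematopoietic, 46.0 and 45.6 in stromal-like and 24.3 and 30.3 in endothelial-like cells, and Suz12 at 109 and 101, 33.2 and 36.4, and 61.7 and 62.2 CPM. Of 6 Trithorax-type genes, 2 were higher, 1 was lower and 3 did not pass against endothelial-like cells, counts too small to set apart from the 23.0% and 21.8% of all genes. The lower one, Kmt2a, which keeps Hox genes active, was at 93.9 and 90.1 CPM in stromal-like, 127 and 119 in endothelial-like and 55.6 and 54.0 in hematopoietic cells (stromal-like minus endothelial-like -0.33 ± 0.09, log2, SE; adjusted p = 0.0246 by the edgeR quasi-likelihood test). Mki67 was high in several hematopoietic clusters, and its part in the Polycomb values was not tested.

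Of 10 upstream regulators, 6 were tested, and 2 (Aldh1a2 and Gdf11) were higher in stromal-like than in endothelial-like cells, 0 were lower and 4 did not pass, beside 23.0% and 21.8% of all genes. Cdx1 and Cdx4 had 0 UMIs in all classes and Cdx2 had 1 UMI, in hematopoietic cells. Aldh1a2, which makes retinoic acid, was at 492 and 610 CPM in reticular-like, 316 and 262 in preosteoblast-like and 142 and 236 in fibroblast-like cells (reticular-like minus preosteoblast-like 0.99 ± 0.24, log2, SE; adjusted p = 0.0188 by the edgeR quasi-likelihood test). Cyp26b1, which degrades retinoic acid, was below its preosteoblast-like level in reticular-like cells, at 0.607 and 0.363 against 5.53 and 7.85 CPM (adjusted p = 0.00341 by the edgeR quasi-likelihood test). The retinoic acid receptors Rara and Rarg were at 47.4 and 38.2 and at 43.6 and 42.0 CPM in stromal-like cells.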

How the data were processed

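The deposited files hold raw UMI counts for each feature in each barcode, which the authors made with Cell Ranger 3.0.0 per the file headers against mm10 (labels), without a filter for cells. Barcodes with 1000 genes or more and no more than 15% mitochondrial UMIs were kept as cells. They were clustered (scanpy 1.11.5, leidenalg 0.10.2; 2000 variable genes, 30 components, 15 neighbors, resolution 0.5) without Hox and related genes and named from marker lists. The class names are not the authors', and values may differ from the study for that reason. Doublets were kept. Scrublet marked 2 and 3 cells, so its threshold had not worked, and an alternative left out 60 and 168 cells by score. The members and lists were chosen with earlier results of these data known. Members described one by one had at least 5 CPM in both mice in 1 of 5 classes. The related genes described were those of 8 lists, with examples chosen after their values were seen.

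Counts were summed per mouse and class and tested with edgeR 4.0.16 (R 4.3.3; TMM, filterByExpr, quasi-likelihood test, Benjamini-Hochberg over all genes), with 2 sums per class. DESeq2 1.42.0, RLE scaling, no filter, other cell limits, other resolutions, doublet removal and a block for mouse were alternatives. Pairing came from the animals: deviations of the same mouse correlated at 0.102 to 0.282 between classes. On simulated counts with stromal against hematopoietic sums (13629 genes), 74% of genes changed by 1 and 99% of genes changed by 2 on the log2 scale were recovered, with 0.149% false calls. Gene positions and exon overlaps were read from GENCODE M21, and promoters from RefSeq. The median depth per cell was 12966.5 and 12190 UMIs, and 3 counts per class and mouse served as the floor. Some items among the members and lists are not reported here.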

Additional observations from a re-analysis of the deposited data

Results flagged for a closer look

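Hox UMIs were also found in data that no comparison used. An unnamed cluster of shallow cells (54 and 127 cells, medians of 3264.5 and 2926 UMIs) had summed Hox levels of 738 and 884 CPM, above the 485 ± 5.80 of reticular-like cells, with HoxA at 61.8% and 68.8% of its Hox UMIs. An unnamed cluster with cell cycle genes (66 and 83 cells, Mki67 at 574 and 626 CPM) had 402 and 439 CPM. The barcodes of 1 to 100 UMIs had 314 and 354 CPM, with the complexes in shares of 57.1% HoxA, 6.48% HoxB, 34.1% HoxC and 2.30% HoxD. All lay above the 42.7 ± 5.07 CPM of hematopoietic cells.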

How the results depend on the processing

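Of 54 recomputed counts of called Hox genes, 50 stayed within 1.5 times of the reported count. For reticular-like against preosteoblast-like cells DESeq2 gave 4 calls instead of 7 and did not call Hoxa6, Hoxd4 and Hoxc5. Without the filter on low counts, 7 instead of 4 members were called for reticular-like against fibroblast-like cells and 6 instead of 2 for preosteoblast-like against fibroblast-like cells, where limits of 2000 genes and 10% mitochondrial UMIs left 1. More members were tested without the filter (35 instead of 24), and the cause of the others was not tested. With the highest doublet scores left out, hematopoietic cells had 14.1 CPM of groups 1 to 8, 12.1 CPM of groups 9 to 13 and a share of groups 9 to 13 of 45.9%, and that share was 10.7% in endothelial-like and 57.1% in preosteoblast-like cells. The stricter cell limits gave preosteoblast-like cells 161.0 CPM of groups 1 to 8 and a share of 58.0%, and resolution 0.3 gave 160.8 CPM. The other 118 of 126 class sums and shares moved by less than the spread between mice. The 126 include the values of each mouse alone, which with 2 mice always lie within that spread of their mean. For those values the outcome was fixed, and they say nothing about the processing. Between 2 mice this spread is itself poorly known.

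DESeq2 changed the split of stromal-like against endothelial-like cells from 11 higher and 12 lower to 10 and 13, and Hoxb2 passed the test under it and under RLE scaling. Of 1134 values for named genes, 11 lost and 15 gained significance and none reversed. With mouse as a replicate block, the counts higher and lower were 10 and 11 for stromal-like against endothelial-like, 17 and 0 for endothelial-like against hematopoietic and 7 and 2 for reticular-like against preosteoblast-like cells. Beside Hoxa6, Hoxa7, Hoxc10 and Hoxd8, whose blocked values stand beside their results, the block changed no call except that of Hoxa6 for endothelial-like against hematopoietic cells (adjusted p = 0.0608 by the edgeR quasi-likelihood test). Leaving out 1 mouse leaves 1 sum per class and no test, so only its plain log2 ratios were set against the fitted values. Of 233 values, 125 lay closer to the fitted value than the spread between mice, and the other 108 did not. The 108 include values for which only 1 mouse gave a ratio, so that there was no spread to compare with. With 2 mice, each ratio always lies within that spread of their mean, so these counts do not measure the loss of a mouse. A reversed sign was looked for only in members called in the main fit, and none was found. Of the 3 broad classes, endothelial-like cells have the highest floor, with 3 counts at 1.52 and 1.54 CPM.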
